A study of Rattus norvegicus with 40 samples.

Results

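Npy, Gal, Vip, Adcyap1 and Nts encode 5 neuropeptides, and their mRNA was followed in lumbar dorsal root ganglia (DRGs, segments L4 and L5) of rats 4 weeks after the L5 spinal nerve had been ligated (SNL) or exposed in a sham operation. The members were the probe sets that the platform annotation pairs with exactly 1 of these gene symbols. That rule found all 5 genes with 6 probe sets, out of 14217 named genes and 31042 probe sets tested. Npy, Gal, Vip and Nts had 1 probe set each. Adcyap1 had 2, of which the brighter one carries the text and the other is given beside it. The SNL cohort held 5 male Sprague-Dawley rats in which the left L5 spinal nerve was tied with silk distal to its DRG, so that the axons of the ipsilateral L5 DRG were cut off from their targets while the neighboring L4 nerve was left alone. The sham cohort held 5 male Sprague-Dawley rats that went through the same operation without the ligature. RNA came from single DRGs of both sides, which gave 8 groups of 5 arrays and 40 arrays in all. The ages of the rats are not given in the sources used here. In whole DRGs, a change in the number of cells of a type and a change in the RNA per cell cannot be told apart.

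Neuropeptides are cut from larger precursors, packed into dense-core vesicles and released from nerve endings, where they act on G protein-coupled receptors. Sensory neurons of the intact adult DRG that use peptides make mainly calcitonin gene-related peptide and substance P, and cutting a peripheral axon is known to shift their repertoire. Neuropeptide Y (Npy) and galanin (Gal) are largely inhibitory transmitters in the spinal cord, vasoactive intestinal peptide (Vip) and pituitary adenylate cyclase-activating polypeptide (Adcyap1) are related peptides that raise cAMP, and neurotensin (Nts) is a peptide of brain and gut.

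The stretches before the start of each gene are shown because the genes moved together on the ligated side and because cAMP response elements and AP-1 sites are known as binding sites of factors of injured neurons. All 5 genes matched in the RefSeq promoter table of the rat assembly GRCr8, which holds 250 bases before and 50 bases after each gene start. The windows are chr4:80211861-80212160 on the plus strand for Npy, chr1:210084523-210084822 on the minus strand for Gal, chr1:44470230-44470529 on the plus strand for Vip, chr9:120556424-120556723 on the minus strand for Adcyap1, and chr7:39460839-39461138 on the minus strand for Nts. Each is written 5′ to 3′ on the strand of its gene, and capitals mark a motif match.
Npy: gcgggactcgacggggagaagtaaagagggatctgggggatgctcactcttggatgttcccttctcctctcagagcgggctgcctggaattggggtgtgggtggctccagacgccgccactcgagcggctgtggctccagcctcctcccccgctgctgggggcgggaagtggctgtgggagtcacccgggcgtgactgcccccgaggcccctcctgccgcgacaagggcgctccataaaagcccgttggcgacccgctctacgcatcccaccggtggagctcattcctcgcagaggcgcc
Gal: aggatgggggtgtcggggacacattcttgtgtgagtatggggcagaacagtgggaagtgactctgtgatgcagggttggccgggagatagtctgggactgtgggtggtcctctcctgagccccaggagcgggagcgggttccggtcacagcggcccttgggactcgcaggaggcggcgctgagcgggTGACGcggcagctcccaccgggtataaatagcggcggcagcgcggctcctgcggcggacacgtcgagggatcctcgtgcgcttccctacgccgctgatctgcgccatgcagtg
Vip: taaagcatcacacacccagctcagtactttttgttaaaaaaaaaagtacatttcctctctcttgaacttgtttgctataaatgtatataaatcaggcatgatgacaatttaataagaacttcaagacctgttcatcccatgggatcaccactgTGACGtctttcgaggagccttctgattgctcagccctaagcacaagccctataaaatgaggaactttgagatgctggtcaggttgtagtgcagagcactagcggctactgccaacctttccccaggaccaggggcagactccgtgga
Adcyap1: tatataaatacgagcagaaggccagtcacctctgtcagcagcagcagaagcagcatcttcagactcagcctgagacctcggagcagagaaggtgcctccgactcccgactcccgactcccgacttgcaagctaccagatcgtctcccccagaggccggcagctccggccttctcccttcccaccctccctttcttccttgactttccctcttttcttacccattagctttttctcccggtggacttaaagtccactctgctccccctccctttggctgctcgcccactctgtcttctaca
Nts: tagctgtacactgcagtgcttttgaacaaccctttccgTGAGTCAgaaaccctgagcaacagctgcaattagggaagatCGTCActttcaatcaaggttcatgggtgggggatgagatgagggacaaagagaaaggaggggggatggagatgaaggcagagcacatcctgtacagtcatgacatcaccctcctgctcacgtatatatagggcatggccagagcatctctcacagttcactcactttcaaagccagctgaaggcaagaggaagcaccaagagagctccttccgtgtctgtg

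Both strands were searched for TGACG, the core of the cAMP response element, for its palindrome TGACGTCA, which always holds the core, for the AP-1 site TGANTCA and for the STAT site TTCNNNGAA. The core stood 63 bases before the start of Gal and 97 bases before that of Vip, counted from the first base of the match. In Nts it stood on the opposite strand, as CGTCA, at 171 bases before the start, and an AP-1 site (TGAGTCA) stood at 212 bases. No window held the palindrome or the STAT site, and the windows of Npy and Adcyap1 held none of the 4 motifs. Of all 33469 promoter windows of the table, 21.2% held the core, 1.83% the palindrome, 7.33% the AP-1 site and 8.87% the STAT site. A match is a description of the letters only.

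The deposited values are linear MAS 5 signals, which the authors had brought to a common trimmed mean, and the medians of the 40 arrays ranged over 28.6 to 55.6. Differences between sides are given as log2 fold changes of (signal + 16), ipsilateral over contralateral, from limma, and a probe set was called at an adjusted p under 0.05. For dim genes the added constant makes the fold change smaller than the ratio of the signals. No array stood apart within its group (r of 0.942 to 0.996 between arrays of a group). The ipsilateral SNL L4 arrays were the least alike, with r of 0.942 to 0.956 among themselves, against 0.970 to 0.996 in the other groups. The sensory neuron marker Avil had signals of 361 or more on every array. In all 4 comparisons the median signal was higher on every ipsilateral array than on every contralateral array, by 4.97 to 7.12 signal units between the means of the sides. In SNL L5, SNL L4 and sham L4 the ratio of the 3′ to the 5′ control probe set of GAPDH, a ratio that increases as RNA degrades, was also higher on every ipsilateral array (means of 1.59, 2.33 and 1.70 on the log2 scale ipsilaterally, against 0.96, 1.39 and 1.28 contralaterally). The signal of the bacterial hybridization controls, which are added in fixed amounts, was higher on every ipsilateral array in SNL L4, sham L5 and sham L4 (by 0.68, 1.01 and 0.95 on the log2 scale between the means of the sides) and overlapped between the sides in SNL L5 (0.22). The part of these measures in the results was not tested. By their labels the 10 arrays of SNL L5 belong to a different title series from the remaining 30, so each side comparison stays within 1 series, while cohort and series cannot be told apart for L5 levels.

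All 5 neuropeptides were higher in the ipsilateral than in the contralateral L5 DRG of SNL rats, by 0.63 to 5.88 on the log2 scale, and in none of them did the sides overlap. Of all probe sets, 30.3% were called higher and 16.8% lower in that comparison, and 20.8% had every ipsilateral array above every contralateral array. In SNL L4, 4 of the 5 genes (Npy, Gal, Vip and Adcyap1) were called higher, against 10.1% of all probe sets (9.01% were called lower). The sides were separate for 3 of them (Npy, Vip and Adcyap1), against 7.63% of all probe sets. In sham rats the same side difference was present for a part of the genes. Npy, Gal and Vip were called higher in sham L5 (3 of 5, against 31.1% of all probe sets, with 19.3% called lower), and Npy and Vip in sham L4 (2 of 5, against 17.3%). Adcyap1 was called lower in sham L4, as were 9.85% of all probe sets. With so many probe sets called, the rank of each gene among all 31042 fold changes is given beside its test.

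**Figure D1:**
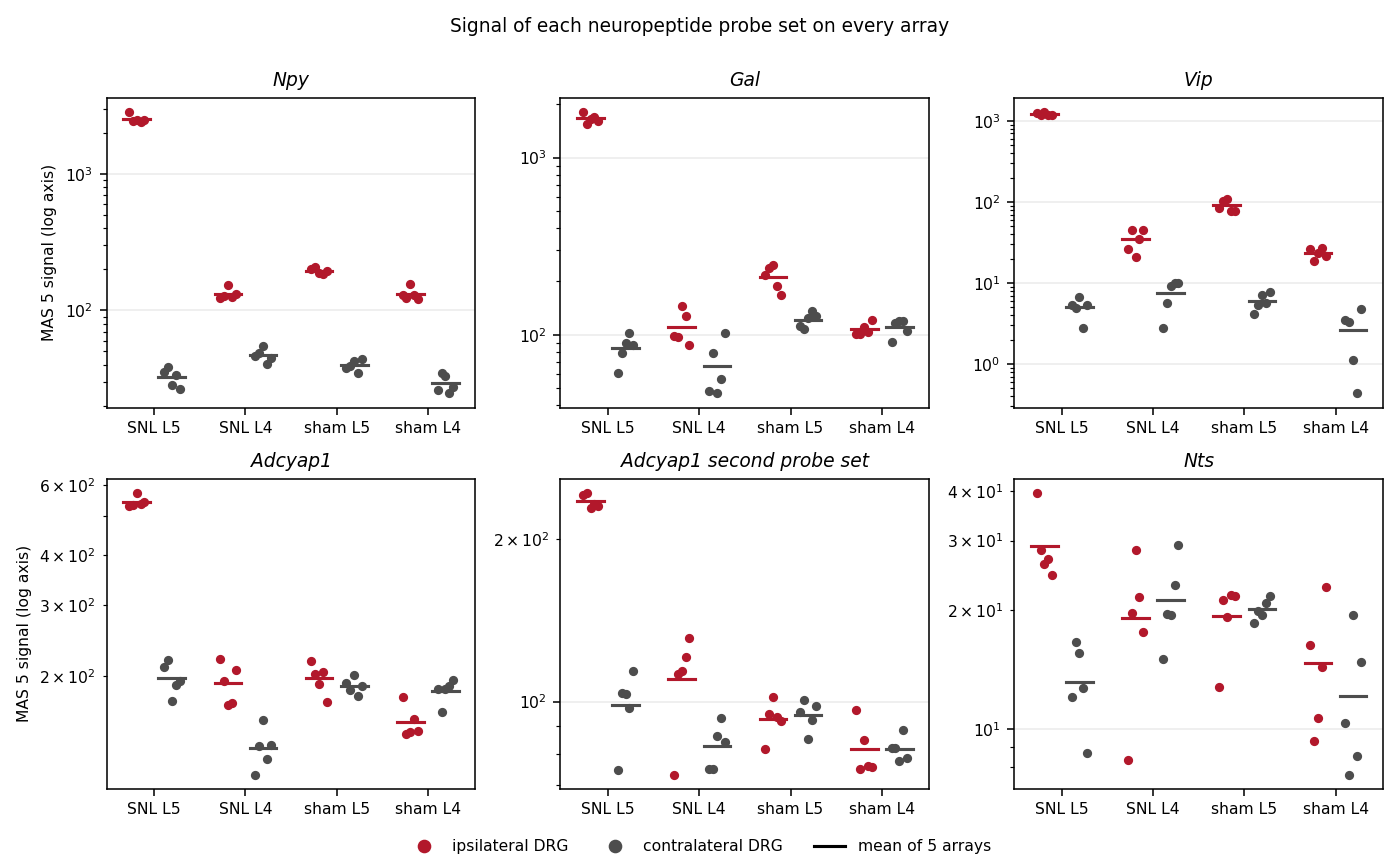
MAS 5 signal (log axis) of the 6 probe sets on each of the 40 arrays, with ipsilateral DRGs (red) left of contralateral DRGs (gray) for SNL L5, SNL L4, sham L5 and sham L4; bars are means of 5 arrays. Ipsilateral SNL L5 arrays of Npy (2401 to 2849), Gal (1553 to 1815) and Vip (1182 to 1300) lie far above all other groups, and Npy and Vip are separated between sides in all 4 comparisons.

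Npy encodes neuropeptide Y, which in the healthy DRG is nearly absent from sensory neurons. In the ipsilateral L5 DRG of SNL rats its signals were 2849, 2419, 2484, 2401 and 2483 in rats 4, 8, 9, 18 and 48, against 35.2, 38.2, 28.6, 33.4 and 26.7 on the contralateral side of the same rats. Rat 4 was the highest, the other 4 ipsilateral DRGs lay close together, and every ligated DRG was far above every contralateral one. The means were 2527 ± 184 ipsilaterally and 32.4 ± 4.7 contralaterally (SD, n = 5 each), a ratio of 78.0. The log2 fold change was 5.72 (SE 0.07, adjusted p = 5.24e-19 from limma), the second largest of all 31042 probe sets.

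In the L4 DRG of SNL rats, whose nerve was not tied, Npy had 123, 127, 153, 125 and 132 on the ipsilateral side and 46.6, 48.4, 54.4, 40.7 and 44.9 on the contralateral side. All ipsilateral values lay well above all contralateral ones, with rat 9 the highest on both sides. The log2 fold change was 1.23 (SE 0.11, adjusted p = 4.47e-07 from limma), which ranked 12 of all probe sets. Sham rats showed this difference as well. Their ipsilateral L5 DRGs had 199, 208, 187, 185 and 195 in rats 1, 14, 17, 22 and 23, and their contralateral L5 DRGs had 37.7, 39.4, 42.2, 34.9 and 43.8 (log2 fold change 1.92, SE 0.06, adjusted p = 3.66e-11 from limma, rank 12). Their ipsilateral L4 DRGs had 129, 124, 155, 130 and 121, and their contralateral L4 DRGs had 26.1, 34.8, 33.0, 24.7 and 27.3 (log2 fold change 1.71, SE 0.10, adjusted p = 9.19e-09 from limma, rank 5). Npy ranked 12 or higher in each of the 4 comparisons, and in each of them all 5 rats had the higher value on the operated side.

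Gal encodes galanin, a peptide that small sensory neurons make in low amounts and that is known to increase after axotomy. In SNL rats the ipsilateral L5 DRGs had signals of 1815, 1553, 1656, 1696 and 1606, against 60.7, 79.3, 90.3, 102 and 87.3 in the contralateral L5 DRGs. The ligated DRGs differed little among themselves and lay far above the contralateral ones. The means were 1665 ± 99 ipsilaterally and 84.0 ± 15.4 contralaterally (SD, n = 5 each), and the log2 fold change was 4.08 (SE 0.09, adjusted p = 8.38e-16 from limma, rank 4).

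At L4 the SNL rats were uneven in Gal. The ipsilateral DRGs had 98.8, 96.6, 145, 127 and 88.1 in rats 4, 8, 9, 18 and 48, and the contralateral DRGs had 48.5, 79.2, 46.7, 56.2 and 102. Rats 4, 9 and 18 were clearly higher on the ipsilateral side, rat 8 slightly so, and rat 48 was lower there, so the sides overlapped. The log2 fold change of 0.65 (SE 0.17) passed limma's threshold (adjusted p = 0.0132), and the exact two-sided permutation test of this gene alone gave p = 0.0317. By the methods' t-test with Benjamini-Hochberg adjustment the call was lost (adjusted p = 0.0798). In sham L5 all ipsilateral DRGs (217, 239, 248, 189 and 168 in rats 1, 14, 17, 22 and 23) lay above all contralateral ones (113, 107, 125, 137 and 128), with a log2 fold change of 0.72 (SE 0.09, adjusted p = 2.27e-05 from limma, rank 1914). In sham L4 the sides overlapped, with 101 to 121 ipsilaterally and 91.5 to 120 contralaterally (log2 fold change -0.03, 95% confidence interval -0.20 to 0.15, adjusted p = 0.846 from limma).

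Vip encodes vasoactive intestinal peptide, and its contralateral signals were at the bottom of the array. In SNL rats the ipsilateral L5 DRGs had 1244, 1194, 1300, 1192 and 1182, a coefficient of variation of 4.07%. The contralateral L5 DRGs had 5.37, 4.85, 6.63, 2.82 and 5.32, values that only 6.7% to 13.7% of the probe sets of those arrays lay at or below. The log2 fold change of 5.88 (SE 0.06, adjusted p = 1.27e-19 from limma) was the largest of all 31042 probe sets, and its size depended on the constant added to the signal (4.22 with 64 and 7.71 with 1).

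In SNL L4 the ipsilateral DRGs had Vip signals of 26.4, 45.2, 20.9, 34.7 and 45.6 and the contralateral DRGs had 2.78, 5.69, 9.19, 9.91 and 9.94. The sides were separate although all values were dim (log2 fold change 1.09, SE 0.19, adjusted p = 0.000455 from limma, rank 31). In sham L5, Vip had 84.1, 104, 110, 76.4 and 77.7 ipsilaterally and 4.19, 5.34, 7.18, 5.71 and 7.66 contralaterally. This was the largest rise of all probe sets in sham L5 (log2 fold change 2.26, SE 0.10, adjusted p = 3.70e-10 from limma). In sham L4 the signals were 26.1, 18.8, 23.8, 27.0 and 21.8 ipsilaterally and 3.51, 3.26, 1.12, 0.434 and 4.74 contralaterally (log2 fold change 1.09, SE 0.11, adjusted p = 3.58e-06 from limma, rank 110). Vip, like Npy, was thus separated between the sides in all 4 comparisons.

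Adcyap1 encodes the precursor of pituitary adenylate cyclase-activating polypeptide, and unlike Npy and Vip it was well expressed on both sides. Ipsilateral L5 DRGs of SNL rats had 530, 534, 572, 538 and 543 and contralateral L5 DRGs had 211, 219, 173, 190 and 194. The ligated DRGs had a coefficient of variation of 3.09%, and the sides did not overlap. The log2 fold change was 1.39 (SE 0.06, adjusted p = 4.42e-12 from limma, rank 243), and the second probe set gave 1.14 (SE 0.08, adjusted p = 2.96e-09), with 228 to 243 ipsilaterally and 74.8 to 114 contralaterally.

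In SNL L4, Adcyap1 had 220, 194, 169, 171 and 207 on the ipsilateral and 113, 134, 155, 124 and 134 on the contralateral side. The sides did not overlap (log2 fold change 0.49, SE 0.10, adjusted p = 0.00144 from limma, rank 2098). Its second probe set overlapped between the sides and was not called (log2 fold change 0.34, 95% confidence interval 0.06 to 0.61, adjusted p = 0.0802). There rat 4 had 73.2 on the ipsilateral side, below the other 4 rats (113 to 131), and without that array the value was 0.46 (adjusted p = 0.00576).

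In sham rats Adcyap1 was not called higher at either segment. Sham L5 had 218, 202, 191, 204 and 172 ipsilaterally and 192, 185, 201, 178 and 188 contralaterally (log2 fold change 0.06, 95% confidence interval -0.07 to 0.19, adjusted p = 0.433 from limma). Scaling all arrays to equal medians turned this to -0.24, and quantile normalization gave 0.21, each past the threshold. In sham L4 the ipsilateral DRGs had 177, 143, 144, 156 and 145, and the contralateral DRGs had 185, 162, 186, 188 and 195 (log2 fold change -0.24, SE 0.07, adjusted p = 0.0223 from limma). All 5 rats were lower on the ipsilateral side, although the sides overlapped through rats 1 and 14, and the call was lost without either rat 14 or rat 17 on the ipsilateral side or rat 22 or rat 23 on the contralateral side (adjusted p = 0.0506 to 0.0618). It was also lost with quantile normalization (-0.13, adjusted p = 0.182). The second probe set had -0.01 there (adjusted p = 0.963).

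Nts encodes the precursor of neurotensin and was dim on every array, with signals of 7.66 to 39.6 over all 40. Ipsilateral L5 DRGs of SNL rats had 39.6, 28.4, 26.2, 26.9 and 24.5, and contralateral L5 DRGs had 12.0, 16.6, 15.6, 12.7 and 8.72. The sides were separate, rat 4 being the highest on the ipsilateral side (log2 fold change 0.63, SE 0.12, adjusted p = 0.000345 from limma). This value ranked 2104, far below the other 4 genes. In SNL L4 the range was 8.36 to 28.4 ipsilaterally and 15.0 to 29.3 contralaterally, in sham L5 12.8 to 21.9 and 18.6 to 21.7, and in sham L4 9.31 to 22.9 and 7.66 to 19.5, ipsilateral first in each. The sides overlapped in these 3 comparisons and Nts was not called, with 95% confidence intervals of -0.50 to 0.29, -0.23 to 0.15 and -0.18 to 0.43 for the log2 fold change.

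**Figure D2:**
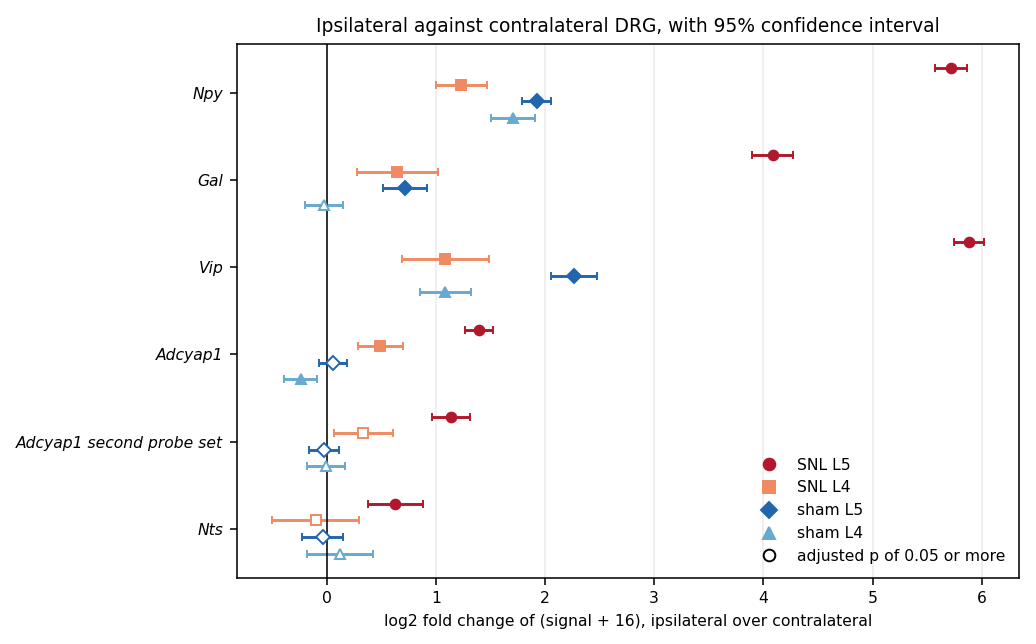
Log2 fold change of (signal + 16), ipsilateral over contralateral, with its 95% confidence interval for each probe set in SNL L5, SNL L4, sham L5 and sham L4 (5 arrays a side); open symbols have an adjusted p of 0.05 or more. The SNL L5 value is the highest for every probe set, and for Npy and Vip the sham values also lie above 1.

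The exact two-sided permutation test of a single gene gave 0.00794, the smallest p that 5 arrays against 5 allow, wherever the sides did not overlap. The median log2 fold change over all probe sets was 0.12 in SNL L5, 0.07 in SNL L4, 0.06 in sham L5 and 0.06 in sham L4. Relative to that median, Npy was higher by 5.60, Vip by 5.76, Gal by 3.96, Adcyap1 by 1.27 and Nts by 0.51 in SNL L5. Npy and Vip were at or above the 99.6 percentile of all probe sets in all 4 comparisons, whereas Gal in sham L5 (percentile 93.8), Adcyap1 in SNL L4 (93.2) and Nts in SNL L5 (93.2) shared their size of rise with many other probe sets.

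**Figure D3:**
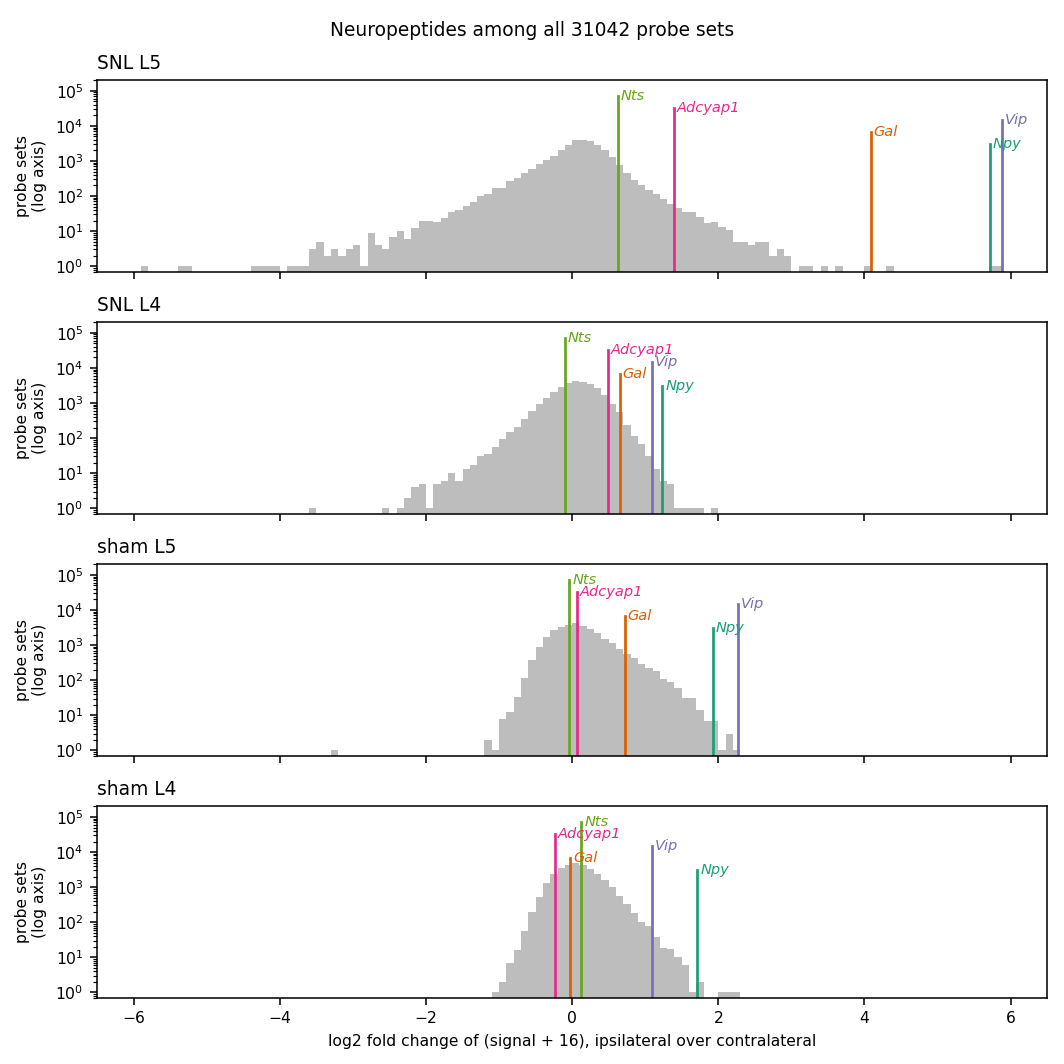
Histogram of the log2 fold changes (ipsilateral over contralateral) of all 31042 probe sets in bins of 0.1 with a log count axis, for each comparison of sides, with colored lines at the 5 neuropeptides. Vip and Npy hold the 2 highest values in SNL L5 and stay at the upper end in sham L5, while Nts and Adcyap1 lie within the bulk in sham rats.

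Whether ligation gave a larger side difference than sham surgery was tested as the difference between the 2 side differences. At L5 this was positive for all 5 genes (20.9% of all probe sets were called higher), with 3.79 for Npy (SE 0.09, adjusted p = 1.60e-20 from limma), 3.62 for Vip (SE 0.12, adjusted p = 1.99e-18), 3.37 for Gal (SE 0.14, adjusted p = 2.28e-16), 1.33 for Adcyap1 (SE 0.09, adjusted p = 1.66e-12) and 0.67 for Nts (SE 0.15, adjusted p = 0.000485). Npy was the largest, Vip the second and Gal the fourth of all probe sets. At L4 the 5 genes went different ways. Adcyap1 (0.73, SE 0.12, adjusted p = 0.000102) and Gal (0.67, SE 0.20, adjusted p = 0.0243) had the larger side difference in SNL rats, as had 5.72% of all probe sets. For Npy the side difference at L4 was smaller in SNL than in sham rats (-0.48, SE 0.14, adjusted p = 0.0196 from limma; 8.28% of all probe sets were called lower).

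The Npy values behind this differed mainly on the contralateral side. The ipsilateral L4 means were 132 ± 12 in SNL rats and 132 ± 14 in sham rats, and the contralateral L4 means were 47.0 ± 5.0 in SNL rats and 29.2 ± 4.5 in sham rats (SD, n = 5 each). After quantile normalization the difference between the cohorts was -0.09 (adjusted p = 0.776 from limma). For Gal, too, the L4 groups differed mainly on the contralateral side. Its contralateral means were 66.5 ± 23.6 in SNL rats and 110 ± 12 in sham rats, and its ipsilateral means were 111 ± 24 and 108 ± 9. Adcyap1 differed on both sides, with 132 ± 15 in SNL rats and 183 ± 13 in sham rats contralaterally. Ipsilaterally it had 192 ± 22 in SNL rats and 153 ± 14 in sham rats. For Vip at L4 the difference between the cohorts was 0.00 with 16 added to the signal (95% confidence interval -0.43 to 0.43), and this value depended on that constant. With 1 added, the side difference was 2.11 in SNL rats and 2.93 in sham rats, a difference of -0.82 that was not called either (adjusted p = 0.371 from limma). Nts was not called (-0.23, 95% confidence interval -0.70 to 0.25). The second Adcyap1 probe set gave 0.34 at L4 (adjusted p = 0.154), and the Gal call was lost when the contralateral SNL L4 array of rat 4 or of rat 9 was left out (adjusted p = 0.0521 and 0.0511).

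Between segments, the side difference in SNL rats was larger at L5 than at L4 for all 5 genes, against 11.1% of all probe sets called higher. It was larger by 4.80 for Vip, 4.48 for Npy, 3.43 for Gal, 0.90 for Adcyap1 and 0.73 for Nts (adjusted p of 6.66e-17, 1.05e-20, 4.68e-13, 5.86e-07 and 0.0168 from limma). In sham rats, where no nerve was tied, Vip (1.18, SE 0.15, adjusted p = 7.15e-06 from limma) and Gal (0.74, SE 0.13, adjusted p = 0.000346) also had the larger side difference at L5. For Adcyap1 the value at L5 minus that at L4 was 0.30 (SE 0.09, adjusted p = 0.0361 from limma), made of 0.06 at L5, which was not called, and -0.24 at L4. These 3 calls in the higher direction stand against 7.33% of all probe sets. Npy (0.21, 95% confidence interval -0.01 to 0.44) and Nts (-0.16, 95% confidence interval -0.52 to 0.19) were not called. The sham value of Adcyap1 lost its call in 13 of the 20 fits that left out 1 array, and its second probe set gave -0.02. The Vip value lost its call with 1 in place of 16 added to the signal (0.79, adjusted p = 0.221).

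Ordered by mean signal, the ipsilateral SNL L5 DRG came first for every gene, and only for Nts did it overlap with the next group. For Npy, Gal and Vip the ipsilateral sham L5 DRG came second, without overlap with its neighbors in the order. Npy and Vip had the same order of all 8 groups. After ipsilateral sham L5 came ipsilateral SNL L4 and ipsilateral sham L4, which overlapped with each other but not with the 4 contralateral groups below them. For Adcyap1 the 7 groups below the ligated DRG formed a chain in which each overlapped with the next, with means of 132 to 198. On the contralateral side of L4, SNL rats set against sham rats were called higher in Npy (log2 fold change 0.48), Nts (0.41) and Vip (0.33) and lower in Gal (-0.65) and Adcyap1 (-0.43), but 44.0% of all probe sets were called higher and 19.9% lower in that comparison, with a median of 0.22. Only the 2 lower calls, of Gal and Adcyap1, were also made with quantile normalization and with arrays scaled to equal medians. The second Adcyap1 probe set had 0.01 (adjusted p = 0.898). Between the contralateral L5 and L4 DRGs of sham rats, Nts (0.37), Npy (0.30) and Vip (0.25) were called higher in L5, among 9.76% of all probe sets.

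Likeness to the neuropeptides was described by Pearson's r of log2(signal + 16) over the 40 arrays, among 8933 genes above the median level. These r values share the same arrays and group structure and are given without a test. Npy was most like Atf3 (r = 0.948), a stress-induced transcription factor of axotomized neurons, Dusp6 (0.940), a phosphatase of ERK kinases, and Tslp (0.936), an epithelial cytokine. Vip was most like Reg3b (0.954), a secreted lectin, Tslp (0.952) and Atf3 (0.946), and Gal was most like Jun (0.958), a subunit of AP-1, Thbs4 (0.953), a thrombospondin, and Cdkn1a (0.951), a cyclin-dependent kinase inhibitor. Without the 5 ligated DRGs these r values fell to between 0.558 and 0.707. Adcyap1 was most like Lgals3 (0.948), Sostdc1 (0.942) and Tslp (0.940), and Nts less closely like Slc35b3 (0.721), Ddr2 (0.691) and Fhl2 (0.664). Among the members, Npy and Vip followed each other over all 40 arrays (r = 0.985) and over the 35 arrays without the ligated DRGs (r = 0.922). Over those 35 arrays Npy and Gal had r = 0.554, Gal and Vip 0.659, Npy and Adcyap1 0.066, and Adcyap1 and Nts -0.189.

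The genes most like Npy and Vip were picked by r over all arrays, among which the ligated DRGs stood far above the others. That these genes had their largest side difference in the ligated DRG follows largely from this choice and is no separate result. Their values are given as a description. Reg3b had a mean signal of 835 in ipsilateral SNL L5 DRGs against 27.2 in contralateral ones (log2 fold change 4.31), and in sham L5 it had 44.8 against 12.8 (1.08), ipsilateral first. It was not called in SNL L4 or sham L4. Atf3 had 1164 against 75.9 in SNL L5 (3.69), 161 against 69.4 in SNL L4, 112 against 78.9 in sham L5 (0.43) and 109 against 79.1 in sham L4 (0.39), ipsilateral first. Atf3 was called in all 4 comparisons, as were Npy and Vip, but its sides overlapped in both L4 comparisons.

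Few receptors of the neuropeptides were called higher, and the calls in the lower direction were more frequent than over all probe sets in both L5 comparisons. Of 17 measured genes of receptors and receptor partners, 2 were called higher and 6 lower in SNL L5, 0 and 1 in SNL L4, 1 and 5 in sham L5, and 0 and 2 in sham L4. Over all probe sets 16.8%, 9.01%, 19.3% and 9.85% were called lower in these comparisons, so that the share of receptors called lower was below the background in SNL L4 and near it in sham L4. The median of the list was 0.01 in SNL L5, 0.07 in SNL L4, -0.19 in sham L5 and 0.01 in sham L4, against 0.12, 0.07, 0.06 and 0.06 over all probe sets. Npy1r, the receptor by which neuropeptide Y inhibits dorsal horn neurons, had 155 ± 12 on the ipsilateral and 202 ± 11 on the contralateral side of SNL L5 (log2 fold change -0.35, SE 0.06, adjusted p = 0.000191 from limma) and was also lower in sham L5 (-0.33). The sorting receptors that bind neurotensin were called lower by their brightest probe sets in SNL L5, and in sham L5 as well. Sort1 had 141 ± 7 ipsilaterally and 184 ± 9 contralaterally (-0.35, SE 0.06, adjusted p = 9.58e-05), with 0.27 in its dimmer probe set (adjusted p = 0.103), and Sorl1 had 51.2 ± 8.8 ipsilaterally and 404 ± 23 contralaterally (-2.65, SE 0.08, adjusted p = 6.09e-14). Of the dimmer Sorl1 probe sets, 4 were also called lower and 1 higher in SNL L5. In sham rats Sort1 had 200 ± 7 ipsilaterally and 251 ± 7 contralaterally at L5 (-0.31, adjusted p = 7.13e-05 from limma) and 199 ± 12 ipsilaterally and 254 ± 13 contralaterally at L4 (-0.33, adjusted p = 0.000917), and Sorl1 had 455 ± 14 ipsilaterally and 581 ± 8 contralaterally at L5 (-0.34, adjusted p = 1.09e-05). The dimmer Sort1 probe set was not called in sham rats, and of the dimmer Sorl1 probe sets none was called lower and 4 were called higher in sham L5. Galr1, a galanin receptor, had 14.9 ± 4.7 against 37.4 ± 2.4 (-0.80, SE 0.12) and Ntsr1, a neurotensin receptor, had 7.78 ± 6.39 against 31.7 ± 5.9 (-1.04, SE 0.16), ipsilateral first, both dim and chosen after their values were seen. The calls in the higher direction in SNL L5 were of receptor partners, Ramp1 (68.9 ± 4.2 ipsilaterally and 19.3 ± 1.4 contralaterally, 1.27) and Ramp2 (0.17), named for the same reason. In sham rats Ramp2 was lower on the ipsilateral side, with 214 ± 14 ipsilaterally and 290 ± 15 contralaterally at L5 (-0.42, SE 0.06, adjusted p = 2.62e-05 from limma) and 203 ± 15 ipsilaterally and 270 ± 22 contralaterally at L4 (-0.38, SE 0.07, adjusted p = 0.000778). By their brightest probe sets, the VIP and PACAP receptors Vipr1, Vipr2 and Adcyap1r1 were not called in SNL L5 or SNL L4. Neither were the dim neuropeptide Y receptors Npy2r, Npy4r and Npy5r. A dimmer Vipr1 probe set was called higher in SNL L5 (0.51, adjusted p = 0.00208 from limma). For Adcyap1r1, 1 dimmer probe set was called higher in SNL L4 (0.83, adjusted p = 0.0463 from limma).

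The list of other neuropeptides, for which expression in the DRG was not a condition, did not move as a block. Of 24 measured genes, 11 were called higher and 5 lower in SNL L5, 2 and 3 in SNL L4, 11 and 3 in sham L5, and 4 and 0 in sham L4, and the list median was 0.25 in SNL L5. The peptides of intact nociceptors were lower in the ligated DRG, where Tac1, the substance P gene, had 200 against 920 (log2 fold change -2.12), Calcb, a CGRP gene, 267 against 1222 (-2.13) and Sst, somatostatin, 43.3 against 396 (-2.80), ipsilateral first. The SNL L5 value of Tac1 was chosen after its value was seen. Tac1 and Sst were also lower in SNL L4 (-0.82 and -0.52), and so was Calcb with 610 against 842 (-0.46, adjusted p = 0.00014 from limma), ipsilateral first. Calca, the other CGRP gene, was called higher by its brightest probe set, with 4970 against 3640 in SNL L4 (0.44), 2871 against 1870 in sham L5 (0.61) and 3462 against 2351 in sham L4 (0.56), ipsilateral first. Its next probe set gave -0.76 in SNL L4, 0.14 in sham L5 and -0.33 in sham L4, so that the direction for Calca was not settled at L4. In SNL L5 that probe set was called lower (-3.12, adjusted p = 1.48e-14 from limma), a value given after it was seen. Nppc, which encodes C-type natriuretic peptide, was higher in sham L5 with 82.5 against 31.5 (1.06) and in sham L4 with 97.8 against 61.4 (0.56), ipsilateral first. Vgf, a precursor of several peptides, went the other way with 405 against 77.3 in SNL L5 (2.19, SE 0.12, adjusted p = 6.81e-11 from limma) and 105 against 48.1 in SNL L4 (0.93), but was lower in sham L5 with 110 against 200 (-0.77). Of 9 measured relatives of the 5 peptides, 2 were called higher and 3 lower in SNL L5, 0 and 0 in SNL L4, 3 and 1 in sham L5, and 3 and 1 in sham L4. Neuromedin B (Nmb) had 39.9 ± 4.3 ipsilaterally and 407 ± 17 contralaterally in SNL L5 (-2.92, SE 0.07, adjusted p = 1.12e-15 from limma).

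Peptide processing and vesicle genes were mostly lower in the ligated DRG. Of 25 measured genes, 5 were called higher and 13 lower in SNL L5 (list median -0.33), 5 and 3 in SNL L4, 7 and 8 in sham L5, and 4 and 3 in sham L4. Scg2, a granin of dense-core vesicles, had 43.1 against 357 (-2.68) and Cadps2, a vesicle priming factor, 91.9 against 325 (-1.67) in SNL L5, whereas Pam, the enzyme that amidates peptides such as neuropeptide Y and VIP, was higher by its brightest probe set in SNL L4 with 576 against 401 (0.51), ipsilateral first. Of its 2 dim probe sets, neither was called in SNL L4. Of 14 measured peptide-degrading enzymes, 6 were called higher and 4 lower in SNL L5, 0 and 1 in SNL L4, 1 and 5 in sham L5, and 1 and 4 in sham L4.

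Injury-related transcription factors and effectors rose most often in SNL L5. Of 25 measured transcription factors, 17 were called higher and 4 lower there (list median 0.38), 7 and 4 in SNL L4, 12 and 2 in sham L5, and 4 and 2 in sham L4. Sox11, a factor of growing neurons, was higher in SNL L5 (1.51), SNL L4 (0.98) and sham L5 (1.03), with separate sides. Of 21 regeneration-associated effectors, 19 were called higher and 0 lower in SNL L5 (list median 1.14), 5 and 1 in SNL L4, 12 and 2 in sham L5, and 8 and 1 in sham L4. Of 30 gp130 cytokines, neurotrophic factors and their receptors, 13 were called higher and 5 lower in SNL L5, where Gfra1 and Gfra3, coreceptors of the GDNF family, had log2 fold changes of 1.47 and 1.33. The counts were 3 and 6 in SNL L4, 8 and 6 in sham L5, and 5 and 4 in sham L4. Il11, a gp130 cytokine, was higher in SNL L4 (0.89), sham L5 (1.01) and sham L4 (0.83) with separate sides. Of 25 genes of cAMP and calcium signaling, the pathway that VIP and PACAP receptors feed, 5 were called higher and 12 lower in SNL L5, 1 and 7 in SNL L4, 11 and 5 in sham L5, and 5 and 3 in sham L4.

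The counts of all these lists are to be read against the probe sets called higher and lower in each comparison, 30.3% and 16.8% in SNL L5, 10.1% and 9.01% in SNL L4, 31.1% and 19.3% in sham L5, and 17.3% and 9.85% in sham L4. The balance of most lists in SNL L5 was similar under other scalings of the arrays, whereas in SNL L4 and in sham rats several balances changed. With quantile normalization and with equal medians, regeneration-associated effectors had 18 and 17 genes called higher and 0 lower in SNL L5, transcription factors 14 and 12 higher and 4 and 6 lower, and peptide processing genes 5 and 3 higher and 13 lower under both. Peptide-degrading enzymes turned to 5 higher and 6 lower with equal medians. In SNL L4, peptide processing genes had 5 higher and 3 lower in the signals as deposited, 5 and 2 with quantile normalization, but 1 and 7 with equal medians, where cAMP and calcium signaling had 0 and 11, gp130 cytokines and neurotrophic factors 1 and 7, and transcription factors 6 and 6. In sham L5, quantile normalization turned the other neuropeptides to 2 higher and 6 lower (11 and 3 as deposited), and gave 8 and 4 for transcription factors, 4 and 6 for cAMP and calcium signaling, 5 and 7 for gp130 cytokines and neurotrophic factors, and 0 and 9 for receptors. There equal medians gave 4 higher and 8 lower for transcription factors, 1 and 15 for peptide processing, 2 and 14 for cAMP and calcium signaling, 8 and 8 for the other neuropeptides, 5 and 14 for gp130 cytokines and neurotrophic factors, 6 and 7 for regeneration-associated effectors, and 0 and 10 for receptors. In sham L4, equal medians gave 3 higher and 14 lower for peptide processing, 2 and 9 for transcription factors, 4 and 10 for cAMP and calcium signaling, and 2 and 4 for the other neuropeptides. The calls of Npy, Gal and Vip in sham L5 and of Npy and Vip in sham L4 were made under both scalings.

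**Figure D4:**
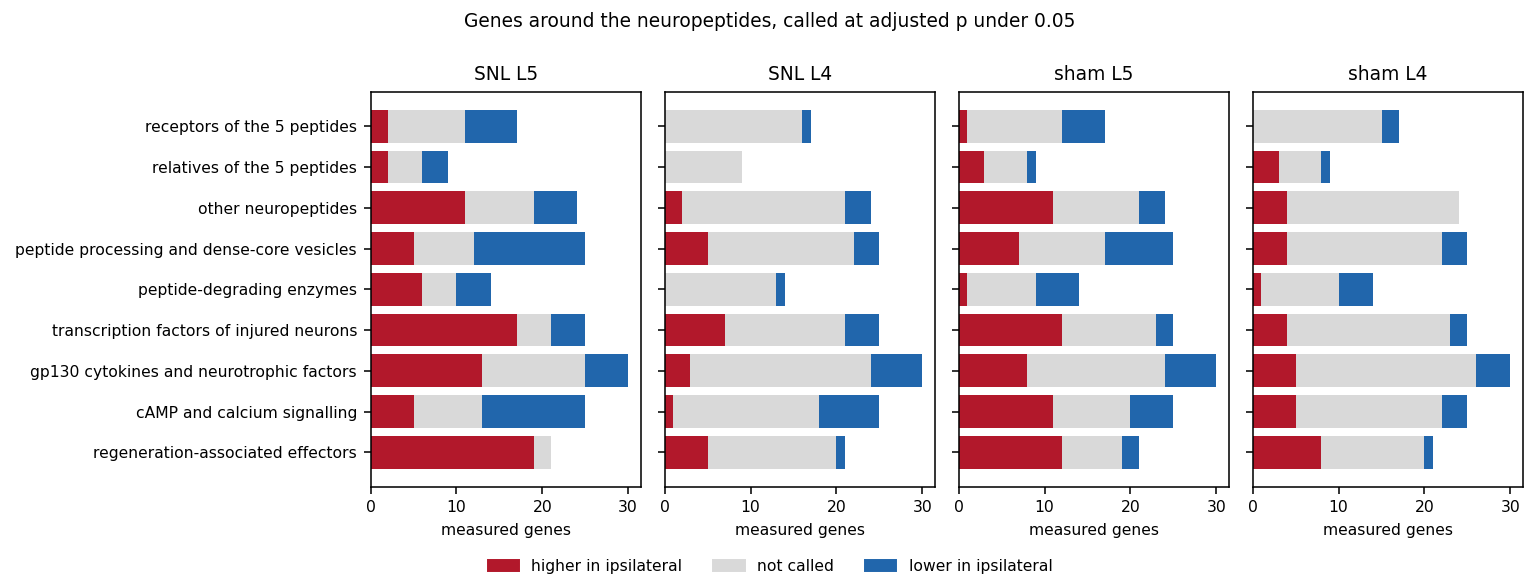
Number of measured genes called higher (red), not called (gray) or called lower (blue) in ipsilateral against contralateral DRGs at an adjusted p under 0.05, for 9 gene lists around the neuropeptides in SNL L5, SNL L4, sham L5 and sham L4. Regeneration-associated effectors have 19 of 21 genes higher in SNL L5, and peptide processing genes have 13 of 25 lower.

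Markers of several cell types moved with the side. The summed signal of 15 neuronal markers was 12905 to 14432 in ipsilateral and 18094 to 21997 in contralateral L5 DRGs of SNL rats, with 1 called higher and 13 lower. In sham rats it was higher on the ipsilateral side, with 18858 to 22613 against 13802 to 15159 at L5 (8 higher, 2 lower) and 24324 to 26194 against 16100 to 19234 at L4 (7 higher, 1 lower), but with equal medians 5 were called higher and 5 lower at L5 and 6 and 5 at L4. The sum of 14 macrophage markers was 1490 to 1639 ipsilaterally and 490 to 545 contralaterally in SNL L5, with 11 called higher and 0 lower. The sum of 12 fibroblast markers was 14865 to 17911 ipsilaterally and 6166 to 7048 contralaterally there (12 higher, 0 lower), and that of 9 skeletal muscle markers was 1360 to 1512 and 4734 to 5441 (1 higher, 8 lower), ipsilateral first. In SNL L4 the fibroblast sum was 11875 to 13457 ipsilaterally and 8179 to 9076 contralaterally (9 higher, 0 lower), and the skeletal muscle sum was 3351 to 3664 ipsilaterally and 2139 to 2276 contralaterally (2 higher, 0 lower). The largest ratio of sums in SNL L4 was in the 10 measured markers of neutrophils and red blood cells, with 1205 to 1421 ipsilaterally and 3439 to 3777 contralaterally (0 higher, 8 lower). Their sum was 3507 to 3889 against 4425 to 5988 in SNL L5 (0 higher, 9 lower) and 2338 to 2501 against 1954 to 2303 in sham L5 (8 higher, 1 lower), ipsilateral first. The sum of 8 markers of myelinating Schwann cells was 10500 to 12859 ipsilaterally and 7506 to 9375 contralaterally in SNL L5 (8 higher, 0 lower). With equal medians 5 were called higher and 0 lower. A dimmer Mbp probe set was called lower in SNL L5 (-0.75, adjusted p = 2.03e-07 from limma), and the dimmer probe sets of Cnp and Pmp22 were not called there. The part of these markers in the neuropeptide results was not tested. Sympathetic neurons also make neuropeptide Y, and the sum of their 7 measured markers was 269 to 357 in ipsilateral and 558 to 653 in contralateral L5 DRGs of SNL rats (1 higher, 2 lower). In sham L5 it was 475 to 583 ipsilaterally and 478 to 552 contralaterally (3 higher, 2 lower), and in sham L4 it was 396 to 468 and 437 to 510 (4 higher, 1 lower), ipsilateral first. With quantile normalization these counts were 1 and 1 in sham L5 and 0 and 0 in sham L4. Their defining enzyme Th had signals of 0.571 to 13.4 over all arrays, with 1.38 to 7.21 ipsilaterally and 6.32 to 10.8 contralaterally in sham L5 and 2.11 to 12.1 ipsilaterally and 2.19 to 9.07 contralaterally in sham L4, so that its sides overlapped in both. Dbh, which makes noradrenaline, had 15.1 to 32.2 against 5.97 to 12.1 in sham L5 and 25.8 to 38.1 against 12.6 to 21.9 in sham L4, ipsilateral first. Slc6a2, of the same list, had 8.83 to 24.9 against 3.86 to 6.13 in sham L5 and 10.1 to 25.3 against 1.29 to 9.86 in sham L4. Hand2 had 18.5 to 29.5 against 1.78 to 12.7 in sham L5 and 22.53 to 34.35 against 9.05 to 22.31 in sham L4. Dbh, Slc6a2 and Hand2 were thus separate between the sides in both, unlike Th, although all were dim. Their part in the Npy difference of sham rats was not tested. No marker of these lists was at 0 on any array.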

How the data were processed

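RNA of 40 single DRGs was hybridized to Affymetrix Rat Genome 230 2.0 arrays, 1 DRG an array. The deposited values are linear signal intensities, which the authors computed with MAS 5 and scaled to a common trimmed mean (99.99 on every array); no source used here gives the software version. From these, log2(signal + 16) of 31042 probe sets (57 control probe sets left out) was fitted with limma 3.58.1 in R 4.3.3, with an intensity trend, within the groups compared, and p-values were adjusted over all probe sets by Benjamini-Hochberg. Probe sets were named from the platform annotation, where 20826 had 1 symbol, 436 several and 9780 none. A gene was represented by its probe set with the highest mean over all arrays, and genes named from a list were taken from the 3 largest called changes of a comparison that lay above the median level and had sides that did not overlap, not all of which are named, except where the text says that a gene was chosen after its value was seen. For each of the 5 genes, the 3 genes with the highest r were also named. The exact permutation tests used scipy 1.17.1 in Python 3.11.15. The 5 genes and the lists of related genes and markers were chosen with earlier results of these data known. The fit was tested on simulated data.

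The rat numbers in the labels pair both sides and both segments of a rat. Deviations of same-numbered sides from their group means correlated weakly (r of -0.06 to 0.04 in SNL L5, -0.01 to 0.04 in SNL L4, -0.15 to 0.01 in sham L5 and -0.05 to 0.10 in sham L4), and the rat was used as a block in an alternative fit only, since the methods do not state a pairing for the arrays. Other alternatives were constants of 1 and 64 in place of 16, quantile normalization, scaling to equal medians, bright probe sets only, no intensity trend, 1 fit of all 8 groups, the methods' t-test, an adjusted p under 0.01, the other Adcyap1 probe set and leaving out each array in turn. The number of arrays limits the precision, and p-values measure the spread between rats of 1 cohort.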

Additional observations from a re-analysis of the deposited data

Results flagged for a closer look

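In 4 of the 48 groups of 5 arrays (6 probe sets in 8 groups), 1 array stood apart from the other 4 by Dixon's criterion, which chance alone meets in about 1 in 20 groups. Npy was highest in the ipsilateral SNL L5 DRG of rat 4 (2849) and in the ipsilateral sham L4 DRG of rat 17 (155.5), the second Adcyap1 probe set was lowest in the ipsilateral SNL L4 DRG of rat 4 (73.2), and Nts was lowest in the ipsilateral sham L5 DRG of rat 1 (12.8).

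The side difference (ipsilateral minus contralateral, log2) differed between cohorts or segments in 18 tests by limma's interaction term. SNL minus sham at L5 it was 3.79 for Npy, 3.37 for Gal, 3.62 for Vip, 1.33 for Adcyap1, 1.16 for the second Adcyap1 probe set and 0.67 for Nts. SNL minus sham at L4 it was -0.48 for Npy, 0.67 for Gal and 0.73 for Adcyap1. L5 minus L4 in SNL rats it was 4.48 for Npy, 3.43 for Gal, 4.80 for Vip, 0.90 for Adcyap1, 0.80 for its second probe set and 0.73 for Nts. L5 minus L4 in sham rats it was 0.74 for Gal, 1.18 for Vip and 0.30 for Adcyap1.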

How the results depend on the processing

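In SNL L5 each of the 5 genes kept its direction and call under every setting tried in which it was tested, with log2 fold changes of 4.75 to 6.25 for Npy, 3.55 to 4.31 for Gal, 4.22 to 7.71 for Vip, 1.14 to 1.46 for Adcyap1 and 0.27 to 1.10 for Nts. With bright probe sets only, Vip and Nts were not tested, and 3 genes were called in SNL L5, in SNL minus sham at L5 and in L5 minus L4 of SNL rats (5 each in the text). Quantile normalization gave 5 called genes in sham L5 (4 higher and 1 lower, against 3). SNL minus sham at L4, 1 of the 3 calls was made at an adjusted p under 0.01 and 1 after quantile normalization; Npy also lost its call with 64 added (-0.25, adjusted p = 0.0643). SNL against sham on the contralateral side of L4, where 5 were called, gave 3 at an adjusted p under 0.01, 2 after quantile normalization, 2 with equal medians, 3 with bright probe sets and 2 by the methods' t-test at p under 0.001. L5 against L4 on the contralateral side of sham rats, where 3 were called (limma, 3 also at an unadjusted p under 0.05), gave 0 at an adjusted p under 0.01, 0 by the methods' t-test at p under 0.001 (2 with Benjamini-Hochberg), 1 with bright probe sets and 1 in the fit of all groups. The sign changed for Adcyap1 in sham L5 (-0.24 with equal medians, against 0.06), Adcyap1 for L5 minus L4 in sham rats (-0.0163 with the other probe set, against 0.30), and, SNL against sham on the contralateral side of L4, Adcyap1 (0.0127 with the other probe set, against -0.43), its second probe set (-0.52 with equal medians, against 0.01) and Nts (-0.11 after quantile normalization, against 0.41). The cause of these changes was not tested. Scaling to equal medians moved the median of all probe sets to 0.00, -0.02, -0.11 and -0.07 in SNL L5, SNL L4, sham L5 and sham L4, and on the contralateral side of L4 to -0.12. There Gal was called lower in sham L4 (-0.23, adjusted p = 0.0396). Leaving out 1 array gave 3 to 5 calls for the contralateral L4 comparison (3 without sham L4 contralateral rat 22), 1 to 3 for the contralateral sham comparison (1 without sham L5 contralateral rat 17 or rat 23), 2 to 3 for sham L4, for SNL minus sham at L4 and for L5 minus L4 in sham rats, and did not change the other counts. With the rat as a replicate block, which could not be fitted for SNL against sham rats on 1 side, the counts of calls stayed at 5, 4, 3 and 3 in SNL L5, SNL L4, sham L5 and sham L4, and of all single results only the second Adcyap1 probe set between the contralateral sham segments lost its call (adjusted p = 0.0744). Vip was near the bottom of the signal range on contralateral arrays and Nts was dim on all arrays, which limits the precision of their fold changes.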

Other observations

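The contralateral L5 levels of the 2 cohorts came from different array title series and were not compared by a test. Npy had mean signals of 32.4 ± 4.7 in SNL rats and 39.6 ± 3.5 in sham rats, Gal 84.0 ± 15.4 in SNL rats and 122 ± 12 in sham rats, Vip 5.00 ± 1.39 in SNL rats and 6.01 ± 1.41 in sham rats, Adcyap1 197 ± 18 in SNL rats and 189 ± 9 in sham rats, and Nts 13.1 ± 3.1 in SNL rats and 20.1 ± 1.2 in sham rats (SD, n = 5 each). Within single rats, the Npy side difference on the log2 scale was 5.49 to 5.87 in SNL L5, 1.15 to 1.32 in SNL L4, 1.80 to 2.02 in sham L5 and 1.46 to 1.84 in sham L4, whereas that of Gal in SNL L4 was -0.18 to 1.36.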
